A study of Mus musculus with 3 samples.

Results

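*Ppargc1a*, *Fabp4* and *Hsd11b1* are genes of energy, fatty acid and glucocorticoid metabolism whose probe sets were less intense on the arrays of *Tet1* knockdown (KD) cells. They were chosen by name: every row that the authors' table of selected probe sets assigns to these 3 genes was taken, which gave 4 of the 1524 probe sets in that table and 4 of the 35512 on each array, 2 for *Ppargc1a* and 1 each for *Fabp4* and *Hsd11b1*. That table kept only probe sets that differed between the *Tet1* KD arrays and the nontarget (NT) array, so the difference from NT chose the members, and it is given below as a description with no test. The arrays measured total RNA of ATDC5, a mouse chondroprogenitor line derived from a teratocarcinoma, after 15 days of chondrogenic differentiation in medium with insulin, transferrin and selenium. The groups were *Tet1* KD, with 2 arrays that carried the lentiviral hairpins Tet1sh1 and Tet1sh2 (hairpin 1 and hairpin 2), and NT, with 1 array that carried the non-target hairpin. All cells were labelled wild-type in genotype. Per the study's methods they were transduced and then selected with puromycin before differentiation began. Each hairpin was read in 1 culture, so hairpin, culture and array cannot be told apart within the *Tet1* KD group, and NT has no replicate. The header of the authors' table numbers the arrays compared 1, 3 and 4, and array 2 was not analysed here.

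The *Ppargc1a* protein, PGC-1 alpha, is a coactivator that binds nuclear receptors and other transcription factors and raises the transcription of genes for mitochondrial biogenesis and oxidation of fuel. It is best known from brown fat, muscle and liver. *Fabp4* encodes a cytosolic carrier of fatty acids that is abundant in adipocytes and is also made by macrophages and endothelial cells. *Hsd11b1* encodes 11 beta-hydroxysteroid dehydrogenase, an enzyme of the endoplasmic reticulum that regenerates active glucocorticoid (corticosterone in mice) from its inert 11-keto form inside the cell, and glucocorticoids act on growth plate chondrocytes. TET1, the enzyme targeted by the hairpins, oxidizes 5-methylcytosine, which in mammals lies mostly at CG dinucleotides.

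Since TET1 acts on methylated CG dinucleotides, the promoter windows of the members are shown with each CG in capitals. RefSeq sequence (build GRCm38.p6) was matched by symbol for 2 of the 3 genes, *Ppargc1a* at chr5:51567676-51567975 and *Hsd11b1* at chr1:193242311-193242610, both on the minus strand and printed 5′ to 3′. *Fabp4* was not matched. Each window of 300 bases runs from 250 bases before to 50 bases after an annotated start.
Ppargc1a: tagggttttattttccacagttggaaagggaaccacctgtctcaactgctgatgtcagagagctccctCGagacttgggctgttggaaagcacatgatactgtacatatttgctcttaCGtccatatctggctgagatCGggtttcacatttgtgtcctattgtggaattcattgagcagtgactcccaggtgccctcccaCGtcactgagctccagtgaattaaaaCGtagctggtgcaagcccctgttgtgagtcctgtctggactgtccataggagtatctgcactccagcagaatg
Hsd11b1: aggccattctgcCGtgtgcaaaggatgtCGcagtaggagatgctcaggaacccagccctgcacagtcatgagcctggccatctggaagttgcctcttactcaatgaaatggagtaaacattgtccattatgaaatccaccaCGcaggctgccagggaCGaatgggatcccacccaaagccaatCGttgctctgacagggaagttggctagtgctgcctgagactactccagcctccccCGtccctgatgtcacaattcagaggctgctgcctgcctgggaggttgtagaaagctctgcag

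The *Ppargc1a* window held 5 CG dinucleotides and the *Hsd11b1* window 6, against a median of 7 over the 32851 promoter windows of the same length, and 43.6% and 47.9% of all windows held as few or fewer. Neither window was poor or rich in CG by that measure. Both windows lie inside the annotated span of their gene, so the span of each gene begins upstream of the sequence shown. Motif letters were searched on both strands. The E-box (CANNTG), a site of helix-loop-helix factors, was found 6 times in the *Ppargc1a* window, at -233, -217, -208, -160, -103 and -63 from the start, and 1 time in the *Hsd11b1* window, at -172. At least 1 was present in 72.3% of all windows, and how many windows held as many as 6 was not counted. The CCAAT box was found in the *Hsd11b1* window at -72 and in 37.4% of all windows. No match was found in either window for the AGGTCA half-site of nuclear receptors (16.3% of all windows), the SOX core ATTGTT (10.7%), the C/EBP core TTGCNNAA (10.8%), the cyclic AMP response element TGACGTCA (1.79%), TATAAA (13.6%) or GGGCGG (35.7%). Nor was there one for the interferon-stimulated response element core (3.44%), the direct repeat of AGGTCA with 1 base between, bound by PPAR and RXR (0.0396%), or the palindromic glucocorticoid receptor element (0.00913%). Methylation was not measured on these arrays.

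The targeted gene was lower on both *Tet1* KD arrays. On the 3 probe sets named *Tet1*, intensity was 36.4% to 52.8% of NT under hairpin 1 and 44.6% to 46.9% of NT under hairpin 2. Median intensity over all 35512 probe sets was 279.6 units under hairpin 1, 263.9 units under hairpin 2 and 305 units in NT, on a linear scale already normalized across arrays. The median log2 intensity of the *Tet1* KD arrays lay 0.16 below that of NT, and differences from NT below are on the deposited scale unless median centring is named.

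*Ppargc1a* was lower under both hairpins on both of its probe sets. On the brighter (probe set 10529979), annotated to the RefSeq transcript NM_008904, intensity was 122 units under hairpin 1 and 86.5 units under hairpin 2, against 629 units in NT. This left 19.4% of the NT intensity under hairpin 1 and 13.8% under hairpin 2, and the NT array stood far above both. On the dimmer (probe set 10529977), annotated to an Ensembl transcript, intensity was 85.3 units under hairpin 1 and 67.7 units under hairpin 2, against 317 units in NT, or 26.9% and 21.4% of NT. The *Tet1* KD means were 104 ± 24.98 units and 76.5 ± 12.4 units (SD, n = 2 hairpins each). The log2 difference from NT was -2.61 ± 0.42 on the brighter probe set and -2.06 ± 0.44 on the dimmer (SE from limma). Here and for the other members, this SE is moderated across all probe sets tested and holds no spread between NT cultures. It is therefore not a test of the difference from NT. The brighter probe set lay further below NT than the dimmer, with log2 differences that differed by -0.47 under hairpin 1 and by -0.63 under hairpin 2. The probe sets therefore gave the same order of arrays, with hairpin 2 lowest and NT highest.

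*Fabp4* (probe set 10497265) measured 179 units under hairpin 1 and 163 units under hairpin 2, against 838 units in NT. The intensities under both hairpins lay close to each other, at 21.4% and 19.5% of NT. The *Tet1* KD mean was 171 ± 11.3 units (SD, n = 2 hairpins), and the log2 difference from NT was -2.29 ± 0.38 (SE from limma).

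*Hsd11b1* (probe set 10361234) measured 224 units under hairpin 1 and 200.4 units under hairpin 2, against 1306 units in NT, which left 17.2% and 15.3% of the NT intensity. The *Tet1* KD mean was 212 ± 16.7 units (SD, n = 2 hairpins), and the log2 difference was -2.62 ± 0.36 (SE from limma). Since probe sets differ in their response to RNA, the intensities of the members do not show which of them had more RNA. In bulk RNA, fewer cells that express a gene and less of its RNA per cell cannot be told apart.

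**Figure D1:**
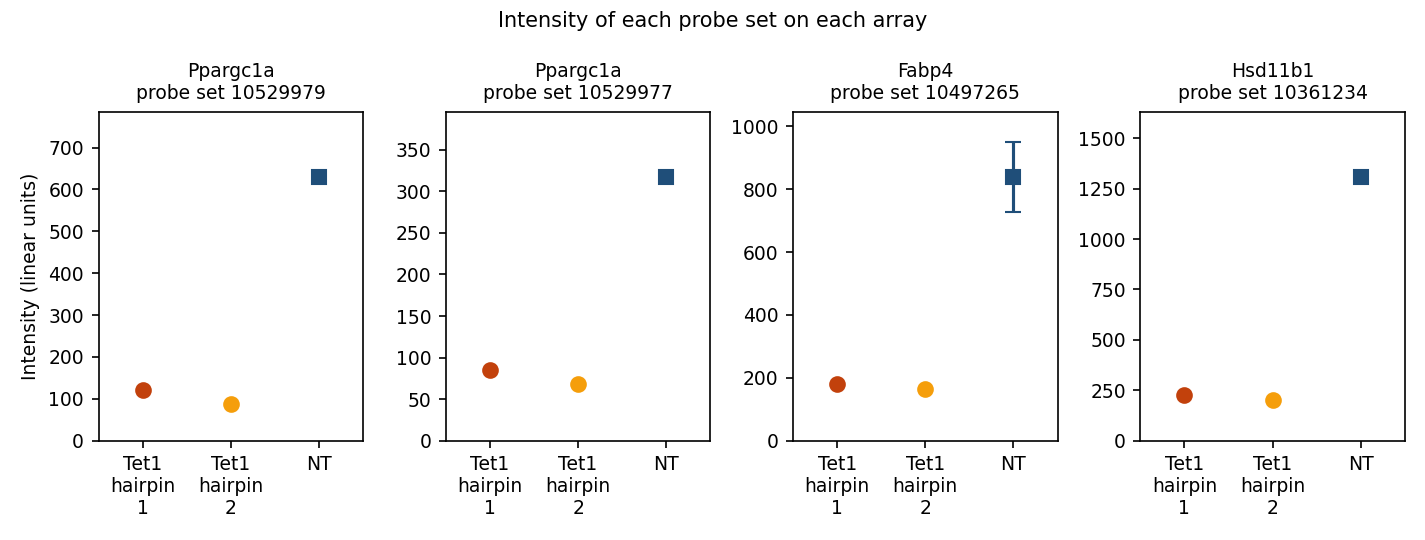
Intensity of the 4 probe sets (linear units, each panel with its own axis from 0) on the arrays of *Tet1* hairpin 1, *Tet1* hairpin 2 and NT, with 1 point per array and, for NT, bars of the deposited standard error. On each probe set both *Tet1* KD arrays sit between 13.8% and 26.9% of the NT array.

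The position of the members within each array changed in the same way. The brighter *Ppargc1a* probe set stood at the percentile 29.0 of all probe sets under hairpin 1 and 19.6 under hairpin 2, against 65.2 in NT. The dimmer stood at 21.5 and 14.8, against 50.9 in NT, and its intensities under hairpin 1 and hairpin 2 were under the lower quartile of their arrays (102 and 109 units), as was that of the brighter under hairpin 2. *Fabp4* stood at 38.6 and 36.6, against 70.4 in NT. *Hsd11b1* stood at 44.5 and 42.6, against 77.9 in NT. All 4 probe sets were thus above the middle of the NT array and below the middle of both *Tet1* KD arrays.

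The error of the lone NT value could be read only from the standard error that the authors' software gave it, which measures how well the probes of a set fit the model on that array and not the spread between cultures. For *Fabp4* this error was 111 units, or 13.3% of the NT intensity, higher than or equal to that of 94.9% of the 1524 selected probe sets. For the brighter and dimmer *Ppargc1a* probe sets it was 5.18 and 2.82 units, or 0.824% and 0.89%, and for *Hsd11b1* it was 9.08 units, or 0.695%. The median over the selected probe sets was 3.01%. The *Fabp4* level in NT was therefore the least certain of the 4, and the mean of the *Tet1* KD arrays minus NT was -667 units, against that error of 111 units.

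Hairpin 2 gave the lower intensity on all 4 probe sets, and the median of its whole array was also lower, at 263.9 units against 279.6 units under hairpin 1. The log2 difference of hairpin 2 from hairpin 1 was -0.49 on the brighter and -0.33 on the dimmer *Ppargc1a* probe set, -0.13 on *Fabp4* and -0.16 on *Hsd11b1*. Over the 27311 probe sets that averaged 100 units or more, the median size of this difference was 0.26, and the members lay at the percentiles 77.1, 59.6, 27.6 and 32.8. With 1 array per hairpin none of these differences could be tested, and the *Ppargc1a* intensities under hairpin 2 were below the lower quartile of that array, so the genes were not ranked by them.

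Of the 4 probe sets, 4 were at least 2.5-fold lower and over 100 units lower than NT under both hairpins. Over all 35512 probe sets, 0.237% (84) met these criteria, 492 met them when only hairpin 2 was set against NT and 175 when only hairpin 1 was, and since the members were taken from a table selected on this difference, nothing is read from their count. Ordered by the mean log2 difference among the 27311 probe sets tested, *Hsd11b1* had rank 10 from the lowest, the brighter *Ppargc1a* probe set rank 11, *Fabp4* rank 18 and the dimmer *Ppargc1a* probe set rank 34. Under hairpin 1 alone the ranks were 13, 19, 23 and 45, and under hairpin 2 alone 30, 21, 46 and 64. The order of *Hsd11b1* and *Ppargc1a* thus depended on the hairpin. With each array centred on its median, the log2 differences were -2.46 for *Hsd11b1*, -2.45 and -1.90 for *Ppargc1a* and -2.13 for *Fabp4*.

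**Figure D2:**
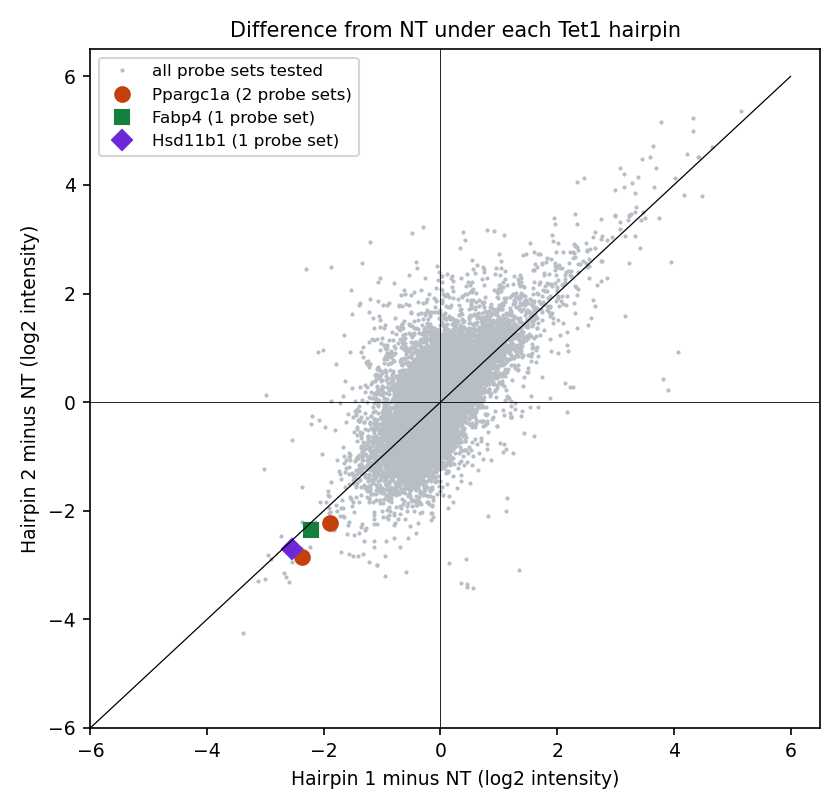
Log2 difference from NT under hairpin 1 (horizontal axis) and hairpin 2 (vertical axis) for the 27311 probe sets tested (grey), with *Ppargc1a*, *Fabp4* and *Hsd11b1* in colour and a diagonal of equal difference. The members lie at the lower left, from -2.54 to -1.89 under hairpin 1 and from -2.86 to -2.23 under hairpin 2, all below the diagonal.

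Among the 1196 genes named in the authors' table, each by its brightest probe set, the genes most like each member were those nearest in the pair of log2 differences from NT, over 3 arrays. *Gna14*, a G protein alpha subunit, was nearest to *Ppargc1a* at a distance of 0.08, followed by *C1qtnf3*, a secreted protein expressed in growth plate cartilage, at 0.18, the transcription factor gene *Ehf* at 0.19 and *Hsd11b1* at 0.24. The genes nearest to *Hsd11b1* were *C1qtnf3* at 0.15, *Gna14* at 0.17, *Ppargc1a* at 0.24 and *Ehf* at 0.24. *Ppargc1a* and *Hsd11b1* were thus on each other's list. *Fabp4* lay further from both, at 0.52 from *Ppargc1a* and 0.47 from *Hsd11b1*. Its nearest genes were *Csf2rb*, the shared beta chain of several cytokine receptors, at 0.10, *Frmd4b* at 0.11, *Gjc3* (listed as Gje1), a connexin gene, at 0.11 and *Tcim* (listed as 1810011O10Rik) at 0.22. These genes were lower than NT on both *Tet1* KD arrays. *Csf2rb* measured 457 and 427 units, against 2263 units in NT, and *C1qtnf3* measured 677 and 557 units, against 3573 units in NT. All of these values come from the contrast that selected the table.

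**Figure D3:**
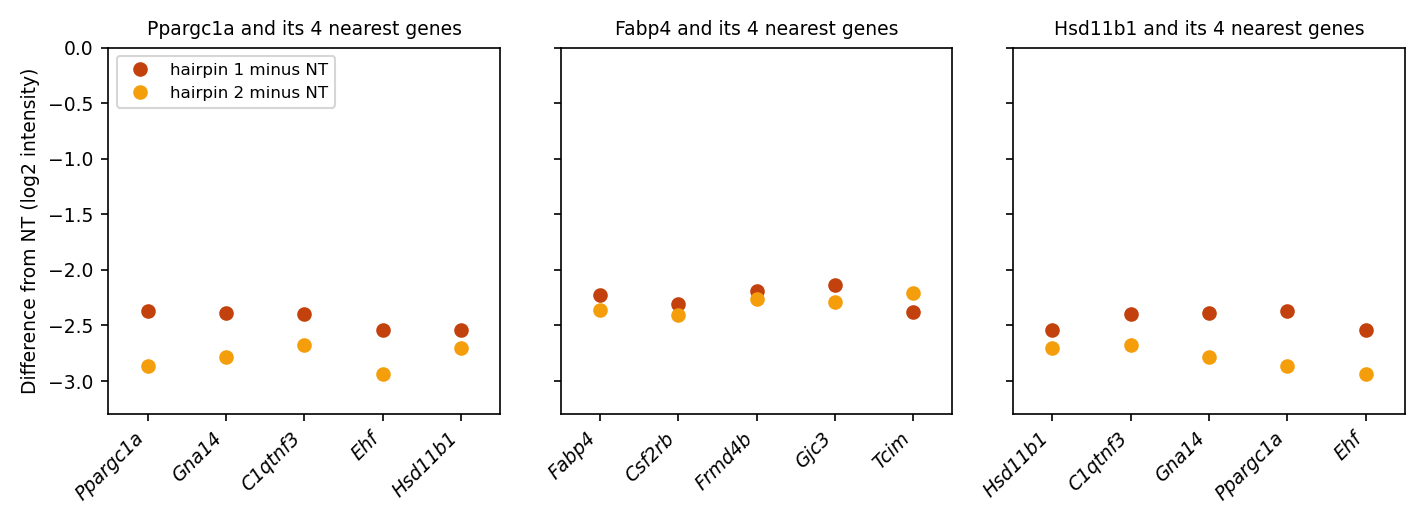
Log2 difference from NT under hairpin 1 and hairpin 2 for *Ppargc1a*, *Fabp4* and *Hsd11b1* (leftmost in each panel) and the 4 named genes nearest to each. *Ppargc1a* at -2.37 and -2.86 is matched most closely by *Gna14* at -2.39 and -2.79, and *Fabp4* at -2.22 and -2.36 by *Csf2rb* at -2.31 and -2.41.

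The other genes of these pathways did not all lie on the same side of NT as the members. Over 9 lists of lipid, mitochondrial and steroid genes, which together held 196 genes, 16 were named in the authors' table. Of these 16, 11 were higher and 5 lower after *Tet1* KD, while of all 1196 named genes 709 were higher and 487 lower. The split of the 16 is therefore not read as a trait of these lists. Limma, with p-values adjusted over all 27311 probe sets tested, called 2 of the 16 higher and 1 lower. Over all probe sets tested, 1.36% were called higher and 0.388% lower (372 and 106, or 316 and 37 after median centring). The 16 genes were named because the authors had selected them on these arrays, so their share of calls cannot be read against that background. The fit has 1 NT array and 1 residual degree of freedom. In each set of data simulated with this design the share of false calls was above the threshold it was run at. The test was thus also too lenient, and the reason was not tested. The limma calls below are given as such and not as established differences.

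*Fabp5*, which encodes the epidermal fatty acid-binding protein, a close relative of *Fabp4*, was the list gene called lower. It measured 1356 units under hairpin 1 and 987 units under hairpin 2, against 4269 units in NT, a log2 difference of -1.88 ± 0.29 (SE, limma adjusted p = 0.00279). Another probe set named *Fabp5* gave 1284 and 949 units, against 4071 units in NT. The array may not separate *Fabp5* from copies that share its sequence, so the probe sets were not counted as independent. The call was lost without the intensity trend (limma adjusted p = 0.111). *Crabp2*, which carries retinoic acid in the cytosol, measured 310.3 and 244 units, against 718 units in NT, with a log2 difference of -1.39 ± 0.37 (limma adjusted p = 0.0853). The other 12 of 14 genes of this protein family were not analysed here.

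For *Ppargc1a*, its nuclear receptor partners *Ppard* and *Rxra* were the 2 named of 29 coactivator and partner genes, and neither passed limma. *Ppard*, a fatty acid-sensing receptor, measured 2134 and 2258 units, against 1189 units in NT (limma adjusted p = 0.158). *Rxra*, the partner of such receptors on DNA, measured 2367 and 2503 units, against 1513 units in NT (limma adjusted p = 0.306). Both had the *Tet1* KD arrays above NT, opposite in direction to *Ppargc1a*. Of 40 genes of mitochondrial biogenesis and oxidation, *Acadm*, the medium-chain acyl-CoA dehydrogenase of fatty acid oxidation, was the 1 named. It measured 1577 and 1732 units, against 3213 units in NT, a log2 difference of -0.96 ± 0.27 that did not pass (limma adjusted p = 0.106). Of 15 genes of gluconeogenesis and thermogenesis, *Pcx*, pyruvate carboxylase, had a log2 difference of 0.95 and *Prdm16*, a regulator of brown fat, one of 0.83, and neither passed (limma adjusted p = 0.209 and 0.389). Of 20 genes of fatty acid uptake and lipolysis, *Acsl4*, an acyl-CoA synthetase, was the 1 named, with a log2 difference of 0.82 (limma adjusted p = 0.185).

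For *Hsd11b1*, the glucocorticoid receptor gene *Nr3c1* was the 1 named of 16 genes of glucocorticoid activation and reception. It measured 2696 and 3048 units, against 1495 units in NT, a log2 difference of 0.94 ± 0.26 that did not pass (limma adjusted p = 0.106). Thus the enzyme gene was lower and the receptor gene higher on both *Tet1* KD arrays, the receptor gene without passing the test. Of 25 glucocorticoid-responsive genes 4 were named, and they went both ways. *Lcn2*, a secreted carrier of siderophores that is also induced by inflammation, measured 2529 and 2384 units, against 912 units in NT, and was called higher (log2 difference 1.43 ± 0.28, limma adjusted p = 0.0134). Quantile normalization gave it a limma adjusted p = 0.0662, and the fit without an intensity trend 0.184. *Cebpd* and *Nfkbia*, also known as genes of the inflammatory response, had log2 differences of 1.05 and 0.74, and *Rgcc* (listed as 1190002H23Rik) one of -0.91, and none of them passed (limma adjusted p = 0.0758, 0.108 and 0.243).

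Of 23 relatives of *Hsd11b1* among hydroxysteroid and short-chain dehydrogenases 2 were named. *Dhrs9*, a short-chain dehydrogenase that acts on retinol and on steroids, measured 4075 units under hairpin 1 and 5526 units under hairpin 2, against 515 units in NT. Its log2 difference of 3.20 ± 0.28 (limma adjusted p = 2.27e-05) was called higher and was opposite in direction to that of *Hsd11b1*. *Hsdl1* measured 419.8 and 429.8 units, against 751 units in NT, and did not pass (limma adjusted p = 0.373). With no filter on dim probe sets limma called 0 probe sets in all (2229 at an unadjusted p under 0.05), so the calls of *Fabp5*, *Lcn2* and *Dhrs9* were lost there as well. With only the probe sets that averaged 200 units or more, 4 further list genes were called by limma, *Acadm* lower (adjusted p = 0.0367) and *Nr3c1*, *Cebpd* and *Nfkbia* higher (adjusted p = 0.0357, 0.0227 and 0.0495).

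**Figure D4:**
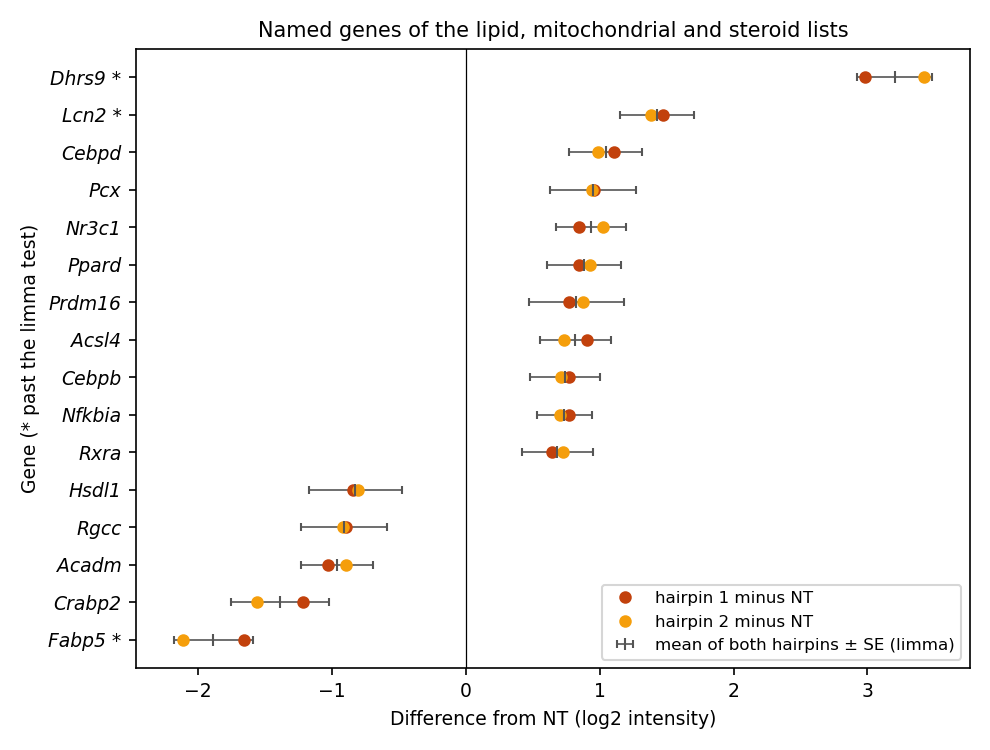
Log2 difference from NT for the 16 named genes of the lists, under hairpin 1 and hairpin 2 (points) with the mean of both and limma's SE (bars), and a star for those past the limma test. *Dhrs9* at 3.20 and *Lcn2* at 1.43 lie above 0 and *Fabp5* at -1.88 below it.

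Markers of cell types that make the members were looked for in the same table. Of 24 adipocyte genes, *Cebpb*, a transcription factor that is also made by many other cells, was the 1 named, at 2583 and 2481 units, against 1512 units in NT (limma adjusted p = 0.241), and *Pparg*, *Adipoq* and *Plin1*, which define adipocytes, were not analysed here. Of 14 macrophage markers 2 were named. *Cd68* was called lower, with 1458 and 820 units, against 4424 units in NT, while *Lyz2* was called higher, with 1974 and 1400.1 units, against 488 units in NT (log2 differences -2.02 and 1.77, limma adjusted p = 0.00459 and 0.00977). Their summed intensity, most of it from *Cd68* in NT, was 3432 and 2219.6 units after KD, against 4912 units in NT, and has no common direction behind it. None of 10 endothelial and 10 muscle markers was named. Of 17 chondrocyte markers 6 were named, and their sum was 8867 and 8921 units after KD, against 13154 units in NT. Of this sum *Cytl1* gave 4439 and 5910 units after KD and 1482 units in NT. *Cytl1* was higher on both *Tet1* KD arrays, while *Acan*, *Col2a1*, *Hapln1*, *Col10a1* and *Col11a1* were lower. Such a sum gives brighter probe sets more weight. Of 10 osteoblast markers, *Ibsp* and *Phex* were the 2 named and both were called higher, with a sum of 7601 and 6840 units after KD, against 2893 units in NT. No named marker was at 0 on any array, but the lower quartiles of the arrays were 102, 109 and 107 units (hairpin 1, hairpin 2, NT). A value above 0 therefore does not show that a marker was expressed. The part of these cell types in the values of *Ppargc1a*, *Fabp4* and *Hsd11b1* was not tested.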

How the data were processed

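Total RNA was hybridized to Mouse Gene 1.0 ST arrays, 2 from *Tet1* KD and 1 from NT cells. For the deposited intensity values, on a linear scale, the authors used dChip with invariant-set normalization and its model-based expression index. The deposited NT standard error, a signal in the same units, came from that model. Build mm9 is named in the submitters' processing notes. The authors' table of selected probe sets also held their own folds, bounds and differences, which were not used, and its intensities equalled the value table. Gene names came from that table alone (1330 of 1524 probe sets), with symbols updated through RefSeq GRCm38.p6 (1084 by accession, 112 by symbol, 75 by synonym, 59 kept). All other probe sets are unnamed here.

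Values below a floor of 10 units were raised to it before log2. Of all probe sets, 27311 averaged 100 units or more and entered a fit by limma 3.58.1 under R 4.3.3, *Tet1* KD against NT, with an intensity trend, two-sided, with Benjamini-Hochberg adjustment at 0.05. The fit has 1 residual degree of freedom and takes NT to vary like the *Tet1* arrays. Its p-values rest on the spread between the 2 hairpin arrays, which may be technical. That spread was moderated toward its trend with intensity over all probe sets tested. Tested on simulated data, the fit returned fold changes without bias but called more unchanged probe sets than its threshold allows, in every set drawn, so its calls are lenient. The number of arrays limits all precision.

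The members, lists and motifs were chosen with earlier results of these data known. Named were all member probe sets, all list genes present in the table (brightest probe set per gene) and the 4 genes nearest to each member. *Csf2rb* and *C1qtnf3* were chosen for their intensities after these were seen. Alternatives covered the floor, a pseudocount of 32, quantile normalization, median centring, the filter, the trend, the fold and leaving out each hairpin.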

Additional observations from a re-analysis of the deposited data

How the results depend on the processing

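All 4 member probe sets remained lower than NT under every alternative run. With log2(intensity + 32) the log2 differences were -2.46 for *Hsd11b1*, -2.10 for *Fabp4* and -1.69 for the dimmer *Ppargc1a* probe set, and with median centring -2.46 for *Hsd11b1* and -2.13 for *Fabp4*; the floor of 1 unit moved none. Without one hairpin they ranged from -2.70 to -2.54 for *Hsd11b1*, -2.36 to -2.22 for *Fabp4*, -2.86 to -2.37 for the brighter and -2.23 to -1.89 for the dimmer *Ppargc1a* probe set. All 4 met the size criteria on every scale, where from 59 to 84 of the 35512 probe sets met them as lower. Since the authors' table was selected on the difference from NT, nothing is read from the members staying lower than NT or meeting these criteria.

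Counts over all probe sets depended more on the processing, and the cause was not tested. Limma called 372 probe sets higher and 106 lower as reported, in all 188 and 34 after quantile normalization, 87 and 21 without the intensity trend and 0 and 0 with no filter (2229 at an unadjusted p under 0.05). With median centring 37 were lower, and with a mean of at least 200 units 222 were lower. Among the list genes the counts were 2 higher and 1 lower as reported, 5 and 2 with a mean of at least 200 units, 1 higher after quantile normalization, 1 and 0 without the trend and 0 and 0 with no filter. At 1.5-fold 1186 probe sets met the size criteria higher and 1019 lower, and with one hairpin left out 353 to 859 higher and 175 to 492 lower. No paired analysis was possible because NT has 1 array and no label pairs it with either hairpin. Dim values after KD, near the lower quartile for *Ppargc1a*, limit how far down a fold can be read.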
